A study of Rattus norvegicus with 34 samples.

Results

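The genes described here encode proteins of the sperm head that act when sperm meet the egg: Acr, Acrv1, Spam1, Zpbp, Crisp2, Adam2, Adam3, Izumo1 and Hyal5. They were measured in whole testis of adult rats fed triazole fungicides. Members were the probe sets whose only gene symbol in the array annotation was one of these 9 names. Of the 9 genes, 7 were measured, with 1 probe set each, among 14217 genes with a probe set of their own. Acr, Acrv1, Spam1, Zpbp, Crisp2 and Adam2 matched by exact symbol (6 genes). Adam3 is represented by the probe set named Adam3a, for which RefSeq lists Adam3 as a synonym of the same gene. Izumo1 and Hyal5 had no probe set with that single symbol and were not measured here.

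Each array held testis RNA of 1 male Wistar Han rat, and 31 of the series' 34 samples had values. The groups were M500 (myclobutanil at 500 ppm, 3 arrays), M2000 (myclobutanil at 2000 ppm, 5), P500 (propiconazole at 500 ppm, 4), P2500 (propiconazole at 2500 ppm, 5), T500 (triadimefon at 500 ppm, 4), T1800 (triadimefon at 1800 ppm, 4) and Control (0 ppm, 6). Every animal was on its diet from gestation day 6, so first through the dam, to postnatal day 92. No other allele or agent was named for any group. The 3 compounds share a triazole ring. Myclobutanil bears a nitrile, propiconazole a dioxolane ring, and triadimefon a ketone. The sources do not name litters, so animals of 1 litter may share a group, and p-values measure the spread between these animals.

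The acrosome is a vesicle that round spermatids build from Golgi membranes and spread over the nucleus. It releases its contents when sperm reach the egg's coats. Acr encodes acrosin, a serine protease stored there as a precursor, and Acrv1 encodes SP-10, a protein of the acrosomal matrix. Zpbp encodes a zona pellucida binding protein that in the mouse is needed to shape the acrosome. Spam1 encodes PH-20, a hyaluronidase on the sperm surface that loosens the cumulus matrix, and Hyal5 is its close relative. Crisp2 encodes a cysteine-rich protein of the acrosome and tail. Adam2 encodes fertilin beta, and in the mouse ADAM2 and ADAM3 are needed for sperm to reach the egg through the oviduct and bind its zona. Izumo1 encodes the sperm protein that binds JUNO on the egg before fusion. Transcription of such genes is largely a matter of meiotic and haploid germ cells.

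The promoters of Acr, Acrv1, Spam1 and Crisp2 are shown because Spam1 and Crisp2 were the most alike of all member pairs across arrays, and Acr and Acrv1 shared their lowest 5 arrays. Each window of the RefSeq GRCr8 annotation covers 250 bases before and 50 bases after the annotated start, 5′ to 3′ along the gene, with motif matches in capitals. The chromosomes are 7 for Acr, 8 for Acrv1, 4 for Spam1 and 9 for Crisp2, printed below as chr7.0, chr8.0, chr4.0 and chr9.0.
Acr, chr7.0:122517684-122517983, plus strand: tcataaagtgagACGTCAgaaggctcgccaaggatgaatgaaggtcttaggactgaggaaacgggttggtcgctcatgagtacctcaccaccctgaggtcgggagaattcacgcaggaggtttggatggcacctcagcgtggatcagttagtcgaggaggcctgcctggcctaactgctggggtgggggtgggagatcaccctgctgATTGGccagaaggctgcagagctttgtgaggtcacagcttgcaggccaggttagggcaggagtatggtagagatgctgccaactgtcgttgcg
Acrv1, chr8.0:44592996-44593295, plus strand: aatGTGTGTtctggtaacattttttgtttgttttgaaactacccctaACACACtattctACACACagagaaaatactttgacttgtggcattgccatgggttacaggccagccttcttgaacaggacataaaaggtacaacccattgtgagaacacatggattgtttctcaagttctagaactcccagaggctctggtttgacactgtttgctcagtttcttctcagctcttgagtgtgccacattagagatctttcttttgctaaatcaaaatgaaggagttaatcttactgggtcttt
Spam1, chr4.0:54268037-54268336, plus strand: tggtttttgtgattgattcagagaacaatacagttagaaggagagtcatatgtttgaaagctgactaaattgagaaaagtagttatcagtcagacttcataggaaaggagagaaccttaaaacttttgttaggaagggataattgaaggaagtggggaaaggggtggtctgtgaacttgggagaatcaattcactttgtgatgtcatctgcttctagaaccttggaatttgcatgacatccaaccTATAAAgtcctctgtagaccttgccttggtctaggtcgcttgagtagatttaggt
Crisp2, chr9.0:27604004-27604303, plus strand: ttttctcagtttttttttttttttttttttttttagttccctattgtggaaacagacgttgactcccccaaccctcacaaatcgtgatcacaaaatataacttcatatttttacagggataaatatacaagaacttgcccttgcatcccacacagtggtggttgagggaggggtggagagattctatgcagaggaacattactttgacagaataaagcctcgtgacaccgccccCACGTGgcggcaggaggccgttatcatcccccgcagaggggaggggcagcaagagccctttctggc
The motifs searched on both strands were the cAMP response element TGACGTCA, its core TGACGT, the repeat ACACAC, the sequence of the TATA box spelled TATAAA, the E-box spelled CACGTG and the box spelled CCAAT. In Acr the capitals mark TGACGT on the opposite strand, 238 bases before the start, and CCAAT on the opposite strand, 43 before it. The Acrv1 window held ACACAC 203 and 191 bases before the start and once more on the opposite strand at 247. In Spam1 the match was TATAAA, 5 bases before the annotated start, and in Crisp2 it was CACGTG, 16 before it. These motifs are common. Of 33469 rat promoters of this length, 7.94% held the cAMP response element's core, which lies within its full form, 16.2% held the ACACAC repeat, 14.2% the TATA box, 6.42% the E-box and 37.5% the CCAAT box. No motif was found in more than 1 of the 4 windows shown. RefSeq's table held 7 of the 9 genes, and no window for Adam2 or Adam3a.

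All values are scores after quantile normalization of the arrays, on a scale like a logarithm of unknown base. Differences are stated in those units. On these arrays the hybridisation controls rose by 0.509 score units per doubling of concentration at the median (0.484 to 0.57 over arrays, at the supplier's standard concentrations). Against the testis label, the 13 measured of 14 elongating spermatid markers averaged 3.52 to 3.73 per array. Of 7 epididymal markers, 3 were measured: Defb22 lay between -0.226 and -0.0723, Adam7 between -0.229 and 0.639, and Aqp9 between 0.999 and 1.35. Their mean per array was highest in P2500, at 0.271 to 0.553, against 0.222 to 0.344 in Control. RNA quality differed between arrays. The actin gap, the 3' minus the 5' beta-actin control probe set, is larger where less of the 5' end was copied. It was 1.47 to 1.67 on 5 arrays (replicate 4 of M500, 5 of M2000, 5 of P2500, and 2 and 6 of Control) and 0.704 to 1.33 on the other 26. The P2500 replicates 2, 3 and 4 also carried the liver transcript Alb at 3.89 to 4.15, against at most 2.29 elsewhere.

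No acrosome or sperm-egg gene differed from Control at an adjusted p under 0.05 in any exposed group, in limma's fit over all 31042 probe sets. The count was 0 of 7 in each of the 6 comparisons, and also 0 of 7 at an unadjusted p under 0.05. The 6 comparisons share the Control arrays. The background was as low: 0% of all probe sets passed the adjusted threshold in M500, M2000, P500, P2500 and T500, and 0.00644% (2 probe sets) in T1800. At an unadjusted p under 0.05 the share of all probe sets was 9% in M500, 1.7% in M2000, 3.36% in P500, 4.15% in P2500, 7.62% in T500 and 5.84% in T1800. The 42 differences ran from -0.15 (Spam1 in T1800) to 0.22 (Acrv1 in T500). The median difference of the 7 genes was -0.01 in M500, 0.05 in M2000, 0.03 in P500, 0.01 in P2500, -0.03 in T500 and -0.06 in T1800, beside a median of 0 over all probe sets in each comparison. Ranges of the exposed group and Control did not overlap for 0 of 7 genes in each comparison, beside 2.01% of all probe sets in M500, 0.155% in M2000, 0.677% in P500, 0.274% in P2500, 1.22% in T500 and 1.94% in T1800. In whole testis, fewer germ cells and less RNA per cell cannot be told apart.

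**Figure D1:**
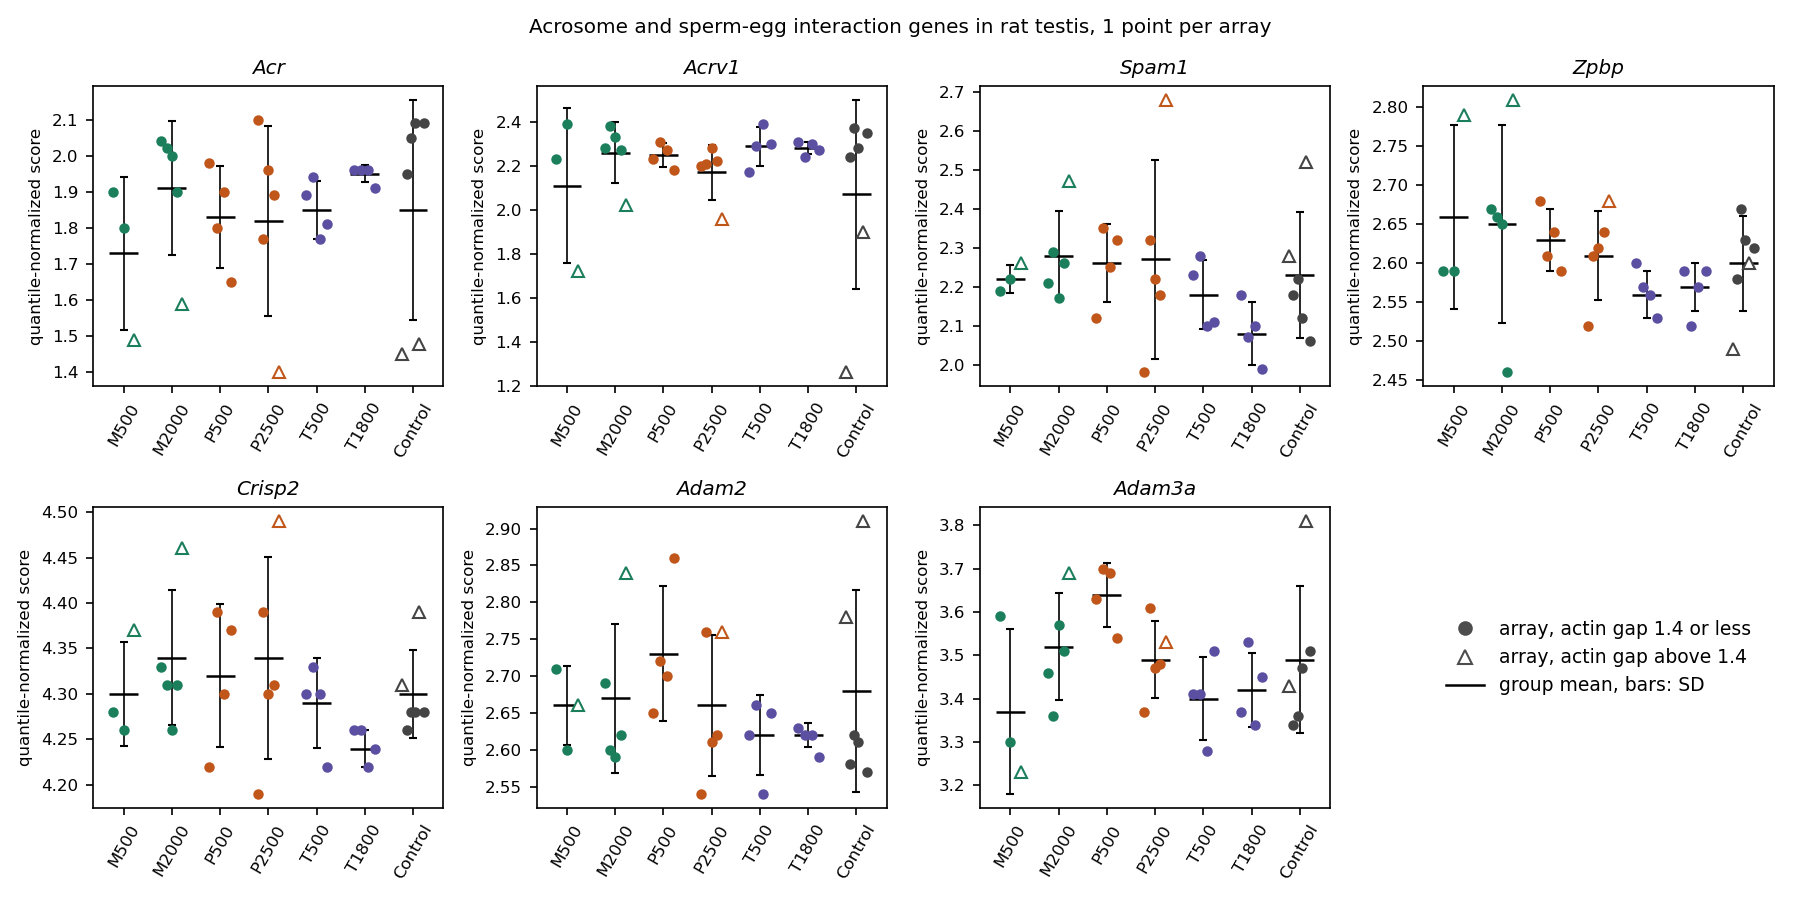
Quantile-normalized score of each measured gene (y axes, own scale per gene) on each array, by group (x axes, exposed groups left of Control). Horizontal lines are group means, bars are SD, and open triangles are the 5 arrays with an actin gap above 1.4. The triangles are the 5 lowest arrays for Acr (1.4 to 1.59) and for Acrv1 (1.26 to 2.02).

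Acr, the acrosin gene, varied widely within groups and little between them. Its scores were 1.9, 1.8 and 1.49 in M500 and 2.04, 2.02, 2, 1.9 and 1.59 in M2000. Propiconazole animals had 1.98, 1.8, 1.9 and 1.65 in P500 and 2.1, 1.77, 1.96, 1.89 and 1.4 in P2500. Triadimefon animals had 1.89, 1.94, 1.77 and 1.81 in T500 and 1.96, 1.96, 1.96 and 1.91 in T1800, against a lowest of 1.45, a median of 2 and a highest of 2.09 in Control. Every exposed group overlapped Control, and the lowest array of M500, M2000, P2500 and Control was in each case one with a large actin gap. The means were closest to each other in T500 (1.85 ± 0.0793, SD, n = 4) and Control (1.85 ± 0.305, SD, n = 6), a difference of 0 with a 95% interval of -0.26 to 0.26. The mean difference furthest below 0 was that of M500, -0.12 (SE 0.141, 95% interval -0.41 to 0.17, adjusted p = 0.873, 1 of 3 arrays above the Control mean). The furthest above 0 was that of T1800, 0.1 (SE 0.128, interval -0.17 to 0.36, adjusted p = 0.84, 4 of 4 arrays above the Control mean). Without the 5 arrays of large gap, all 6 Acr differences were below 0: -0.2 in M500 (2 arrays), -0.06 in M2000, -0.21 in P500, -0.12 in P2500, -0.19 in T500 and -0.1 in T1800. T500 arrays then lay at 1.77 to 1.94 (adjusted p = 0.391) and M500 arrays at 1.8 and 1.9 (adjusted p = 0.373), against 1.95 to 2.09 on the 4 remaining Control arrays. The share of all probe sets without overlap on these arrays was not computed. The smallest adjusted p of Acr was 0.0756, in P500, which overlapped Control. With the actin gap as a covariate instead, the Acr difference was -0.01 in P500 and -0.22 in T500.

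Acrv1, the SP-10 gene, had the highest estimates relative to Control and the widest intervals. It scored 2.23, 2.39 and 1.72 in M500 and 2.28, 2.38, 2.33, 2.27 and 2.02 in M2000. Its scores were 2.23, 2.31, 2.27 and 2.18 in P500 and 2.2, 2.21, 2.28, 2.22 and 1.96 in P2500. They were 2.17, 2.29, 2.39 and 2.3 in T500 and 2.31, 2.24, 2.3 and 2.27 in T1800, against 1.26 (lowest), 2.26 (median) and 2.37 (highest) in Control. The 2 lowest Control arrays, 1.26 and 1.9, pulled the Control mean to 2.07 ± 0.431 (SD, n = 6), below that of every exposed group. The difference was 0.22 in T500 (SE 0.146, 95% interval -0.08 to 0.52, adjusted p = 0.7), 0.21 in T1800, 0.19 in M2000, 0.18 in P500, 0.1 in P2500 and 0.05 in M500. All 4 arrays lay above the Control mean in T500, in T1800 and in P500. Without the 5 arrays of large actin gap the same differences were -0.02 in T500, -0.03 in T1800, 0.01 in M2000, -0.06 in P500, -0.08 in P2500 and 0 in M500, with 4 Control arrays left at a mean of 2.31. Leaving out Control replicate 2 alone (1.26) gave 0.06 in T500, 0.05 in T1800, 0.03 in M2000, 0.02 in P500, -0.06 in P2500 and -0.12 in M500.

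Spam1, the PH-20 gene, gave the lowest estimate of the set. Its scores were 2.19, 2.22 and 2.26 in M500 and 2.21, 2.29, 2.17, 2.26 and 2.47 in M2000. Propiconazole testes had 2.12, 2.35, 2.25 and 2.32 in P500 and 1.98, 2.32, 2.22, 2.18 and 2.68 in P2500. Triadimefon testes had 2.23, 2.28, 2.1 and 2.11 in T500 and 2.18, 2.07, 2.1 and 1.99 in T1800, against a lowest of 2.06, a median of 2.2 and a highest of 2.52 in Control. All 4 T1800 arrays were below the Control mean, 3 of them within the Control range, and P2500 held both the lowest and the highest array of the series. T1800 averaged 2.08 ± 0.0799 (SD, n = 4) and Control 2.23 ± 0.161 (SD, n = 6), a difference of -0.15 (SE 0.0908, 95% interval -0.33 to 0.04, adjusted p = 0.767). Without the arrays of large gap, that difference was -0.06 (interval -0.18 to 0.06, adjusted p = 0.949, 4 arrays each).

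Zpbp, which shapes the acrosome in the mouse, and Crisp2 differed least between groups on the quantile-normalized scores. On the scores as deposited, Crisp2 differed from Control by -0.6 in M2000 to 0.97 in M500 (adjusted p = 0.49). Zpbp then differed by -0.19 in M2000 to 0.61 in M500 (adjusted p = 0.336). Single arrays stood apart on those scores. Deposited Crisp2 was 7.11 on Control replicate 2, against 3.81 to 4.29 on the other Control arrays. In M500 it was 7.44 on replicate 4, against 4.69 and 4.42. Deposited Zpbp was 3.5 on Control replicate 2 and 4.29 on M500 replicate 4, against 2.15 to 3.02 on all other arrays. Crisp2 lay near the top of the scores, whose distribution quantile normalization makes equal on all arrays. Zpbp ranged from 2.46 to 2.81 over the exposed groups, against 2.49 to 2.67 in Control, and its group differences lay between -0.03 in T500 and T1800 and 0.06 in M500 (SE 0.0513, 95% interval -0.05 to 0.16, adjusted p = 0.82). Crisp2 scored 4.28, 4.26 and 4.37 in M500 and 4.33, 4.31, 4.26, 4.31 and 4.46 in M2000. It scored 4.22, 4.39, 4.3 and 4.37 in P500 and 4.19, 4.39, 4.3, 4.31 and 4.49 in P2500. Crisp2 values were 4.3, 4.33, 4.3 and 4.22 in T500 and 4.26, 4.26, 4.22 and 4.24 in T1800, against 4.26 (lowest), 4.28 (median) and 4.39 (highest) in Control. All groups overlapped, and the T1800 arrays lay at or below the lowest Control array. The T1800 mean of 4.24 ± 0.02 (SD, n = 4) and the Control mean of 4.3 ± 0.0483 (SD, n = 6) differed by -0.06 (SE 0.0439, interval -0.15 to 0.03, adjusted p = 0.77).

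Adam2, the fertilin beta gene, scored 2.71, 2.6 and 2.66 in M500 and 2.69, 2.6, 2.59, 2.62 and 2.84 in M2000. Its scores were 2.65, 2.72, 2.7 and 2.86 in P500 and 2.54, 2.76, 2.61, 2.62 and 2.76 in P2500. They were 2.62, 2.66, 2.54 and 2.65 in T500 and 2.63, 2.62, 2.62 and 2.59 in T1800, against a lowest of 2.57, a median of 2.62 and a highest of 2.91 in Control. The highest value of the series thus fell in Control, on replicate 6, and every group overlapped Control. The estimates ran from -0.06 in T500 and T1800 (SE 0.0586, 95% interval -0.18 to 0.06 in each) to 0.05 in P500 (SE 0.0586, interval -0.07 to 0.17, adjusted p = 1).

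Adam3a, the measured Adam3 gene, was the only member for which 2 groups of the 12 comparisons made did not overlap with all arrays kept. It scored 3.59, 3.3 and 3.23 in M500 and 3.46, 3.36, 3.57, 3.51 and 3.69 in M2000. P500 had 3.63, 3.7, 3.69 and 3.54, and P2500 had 3.37, 3.61, 3.47, 3.48 and 3.53. T500 had 3.41, 3.41, 3.28 and 3.51 and T1800 3.37, 3.53, 3.34 and 3.45, against a lowest of 3.34, a median of 3.45 and a highest of 3.81 in Control. P500 was the highest group by mean, and all 4 of its arrays exceeded 5 of the 6 Control arrays, but Control replicate 6 at 3.81 exceeded them all. The P500 mean of 3.64 ± 0.0738 (SD, n = 4) and the Control mean of 3.49 ± 0.17 (SD, n = 6) differed by 0.16 (SE 0.0772, 95% interval 0 to 0.31, adjusted p = 1). That difference had the other sign on the scores as deposited (-0.17) and after scale normalization (-0.12). Deposited Adam3a was 5.16 on Control replicate 2, against 3.14 to 3.58 on the other Control arrays. In a test of any difference between the 7 groups, Adam3a had the smallest p of the set, 0.0811, with an adjusted p of 0.928.

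**Figure D2:**
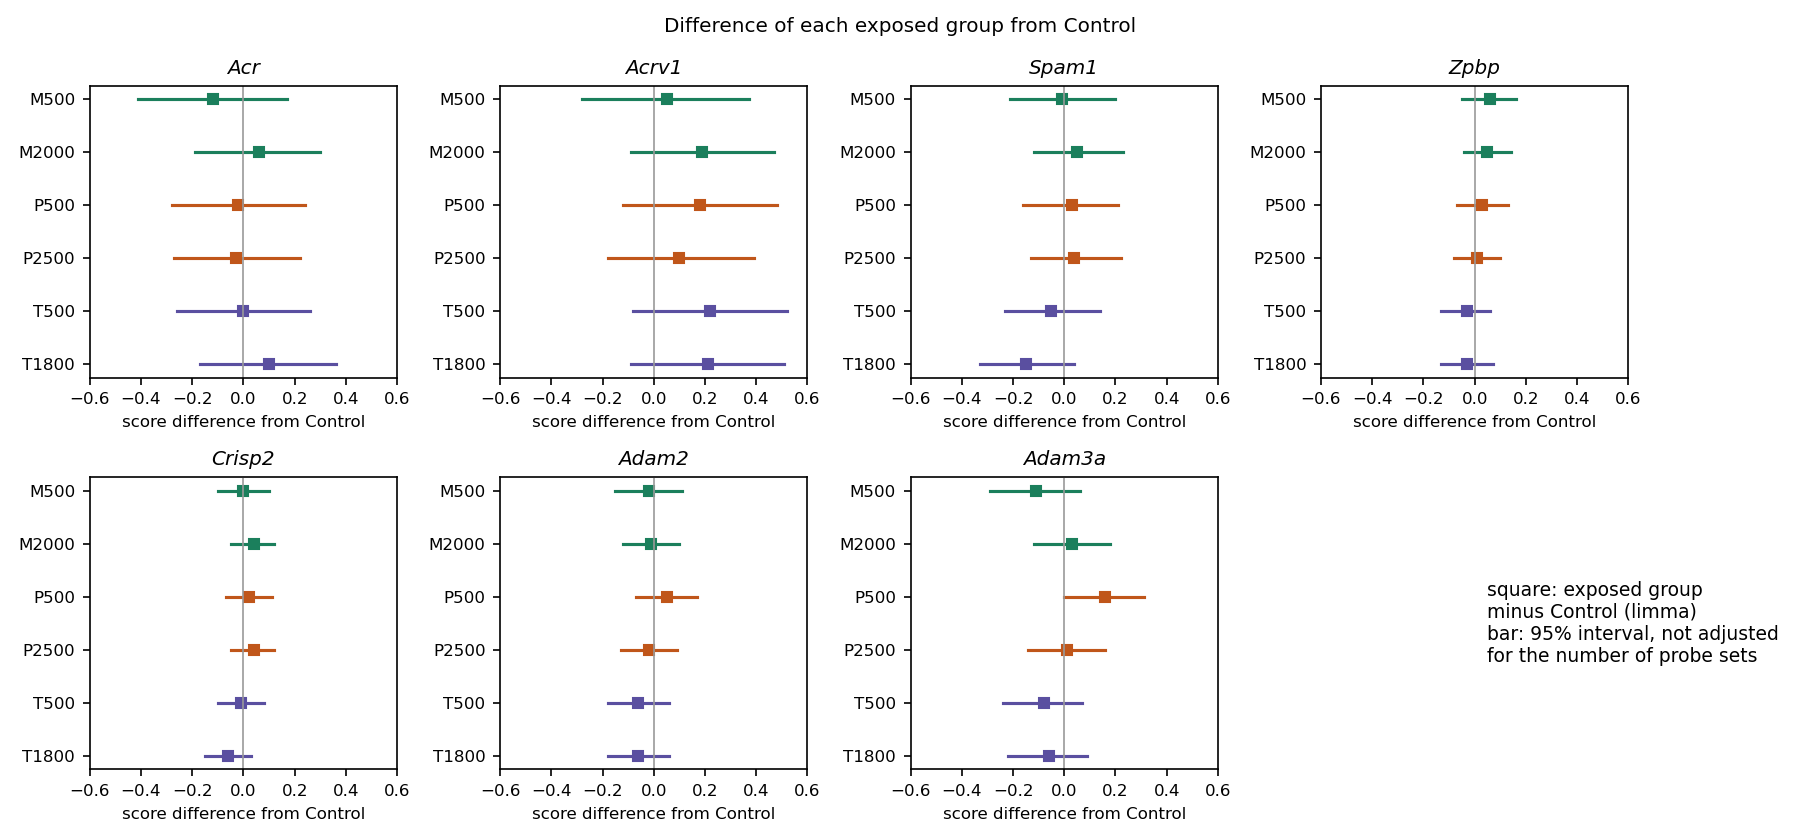
Difference of each exposed group's mean score from Control (squares, x axes in score units, same scale for all genes) with its 95% interval (bars, limma, not adjusted for the number of probe sets), exposed groups down the y axes. All 42 intervals include 0, that of Adam3a in P500 at its lower end, and they are widest for Acr and Acrv1.

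The compounds could be compared at a matched dose only at 500 ppm, in 3 pairs of groups over 7 genes. None of the 21 differences passed the adjusted threshold (0 of 7 genes in each pair, beside 0% of all probe sets). At an unadjusted p under 0.05, 1 of 7 genes passed in M500 against P500 (7.48% of all probe sets), 0 of 7 in M500 against T500 (6.69%) and 1 of 7 in P500 against T500 (5.08%). The gene was Adam3a in both. Its mean was 0.27 lower in M500 than in P500 (difference -0.27, SE 0.0914, 95% interval -0.46 to -0.08, adjusted p = 0.503), and the arrays of these groups overlapped. The mean was 0.24 higher in P500 than in T500 (SE 0.0846, interval 0.07 to 0.41, adjusted p = 0.888), with every P500 array above every T500 array. On the scores as deposited these 2 groups overlapped, at 3.25 to 3.73 in P500 and 3.01 to 3.96 in T500. Groups without overlap were seen for 7.22% of all probe sets in that pair, and for 5.97% in M500 against P500 and 5.43% in M500 against T500, where 0 of 7 genes had none.

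For the other 6 genes the intervals of the compound differences all included 0. Between P500 and T500 they were -0.31 to 0.27 for Acr, -0.37 to 0.29 for Acrv1, -0.13 to 0.28 for Spam1, -0.04 to 0.17 for Zpbp, -0.07 to 0.13 for Crisp2 and -0.02 to 0.25 for Adam2. Between M500 and T500 they were -0.44 to 0.19 for Acr and -0.53 to 0.18 for Acrv1. Differences of that size between the compounds therefore remain possible, most of all for Acr and Acrv1. The high doses differ between compounds. At 2000 ppm of myclobutanil, 2500 ppm of propiconazole and 1800 ppm of triadimefon, Adam3a averaged 3.52 ± 0.124 (SD, n = 5), 3.49 ± 0.0885 (SD, n = 5) and 3.42 ± 0.0844 (SD, n = 4).

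The P500 and T500 groups differed in RNA quality as well. The actin gap was 0.85, 1.1, 1.27 and 1.33 on the P500 arrays and 0.875, 0.825, 0.704 and 0.758 on the T500 arrays. The 6 measured of 12 round spermatid markers averaged 2.51 in P500 (2.45 to 2.59 by array), against 2.43 in T500 (2.42 to 2.44). The part of either in the Adam3a difference was not tested. When the 5 arrays of large gap were left out, none of which is in these 2 groups, Adam3a passed the threshold with the same difference and a smaller standard error (0.24, SE 0.0636, interval 0.11 to 0.37, adjusted p = 0.0485, 4 arrays each). In that fit, on the quantile-normalized scores, 2.18% of all probe sets (676) passed, and 1 of 7 genes. With the gap as a covariate, no member passed in any comparison.

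High and mid dose of the same compound did not differ at the adjusted threshold for any of the 7 genes. The count was 0 of 7 for M2000 against M500 and for P2500 against P500, with 0% of all probe sets in each, and 0 of 7 for T1800 against T500, with 0.00322%. At an unadjusted p under 0.05 it was also 0 of 7 in each, beside 7.55%, 3.83% and 1.97% of all probe sets in those 3 comparisons. The widest step was that of Acr with myclobutanil, 1.91 ± 0.185 (SD, n = 5) in M2000 and 1.73 ± 0.212 (SD, n = 3) in M500, a difference of 0.18 (SE 0.145, 95% interval -0.12 to 0.48, adjusted p = 0.831). Adam3a was 0.15 lower in P2500 than in P500 (difference -0.15, SE 0.0802, interval -0.31 to 0.02, adjusted p = 1). Spam1 was 0.1 lower in T1800 than in T500 (difference -0.1, SE 0.0995, interval -0.3 to 0.11, adjusted p = 1).

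Across arrays rather than groups, the genes followed the actin gap in opposite directions. Acr and Acrv1 were low where the gap was large: the 5 large-gap arrays had Acr at 1.4 to 1.59, against 1.65 to 2.1 on the other 26, and Acrv1 at 1.26 to 2.02, against 2.17 to 2.39. Neither gene overlapped between these sets of arrays, and the share of all probe sets without such overlap was not computed. A correlation with the gap of size 0.5 or more was seen in 23% of all probe sets on the negative side and in 24% on the positive side. Adam2, Crisp2 and Spam1 were high on the same arrays, with overlap: Adam2 at 2.66 to 2.91 against 2.54 to 2.86, Crisp2 at 4.31 to 4.49 against 4.19 to 4.39, and Spam1 at 2.26 to 2.68 against 1.98 to 2.35. These arrays came from M500, M2000, P2500 and Control.

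Over 31 arrays the correlation with the gap was -0.85 for Acr (Spearman rho -0.54) and -0.82 for Acrv1 (rho -0.68), each with a permutation p of 1e-05, the smallest that 100000 permutations can give, and an adjusted p of 2.3e-05 over the 7 genes. It was 0.81 for Adam2 (rho 0.72, permutation p = 1e-05, adjusted 2.3e-05), 0.71 for Crisp2 (rho 0.65, adjusted permutation p = 4.2e-05) and 0.71 for Spam1 (rho 0.61, adjusted permutation p = 3.5e-05). Adam3a had r = 0.39 (rho 0.55, adjusted permutation p = 0.033), and Zpbp had r = 0.33 (rho 0.30, permutation p = 0.071). The permutation p of rho was 0.002 for Acr, 3e-05 for Acrv1, 2e-05 for Adam2, 9e-05 for Crisp2, 0.00044 for Spam1, 0.0015 for Adam3a and 0.096 for Zpbp. Without the 2 arrays whose gap was farthest from the median, r was -0.79 for Acr, -0.81 for Acrv1, 0.75 for Adam2, 0.77 for Crisp2, 0.70 for Spam1, 0.34 for Adam3a and 0.61 for Zpbp.

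Within the 26 arrays of smaller gap, r was -0.46 for Acr, -0.40 for Acrv1, 0.56 for Spam1, 0.13 for Zpbp, 0.62 for Crisp2, 0.81 for Adam2 and 0.68 for Adam3a. With the group means taken out, r over all arrays was -0.92 for Acr, -0.84 for Acrv1, 0.72 for Spam1, 0.75 for Crisp2 and 0.80 for Adam2. The 25 animals of earlier identification numbers and the 6 of later ones gave the same signs, with -0.84 and -0.94 for Acr, -0.81 and -0.98 for Acrv1, 0.76 and 0.99 for Adam2, 0.65 and 0.97 for Spam1, and 0.36 and 0.16 for Zpbp. Among the later numbers only Control replicate 6 had a large gap (1.63), against 0.835 to 0.928 on the others. The values of the later numbers therefore rest largely on that 1 array. Such relations are frequent on these arrays: 3.74% of all probe sets had an r as low as that of Acr, 5.36% as low as that of Acrv1, 7.56% as high as that of Adam2 and 13.7% as high as that of Spam1. Spermatid markers also differed between the same sets of arrays, in both directions. Of 13 elongating spermatid markers, 4 had a higher and 8 a lower mean on the large-gap arrays and 1 (Prm1) was equal. Prm1 scored 4.66 on every array after normalization, so it could show no difference. Of 6 round spermatid markers, 4 were higher and 2 lower. Crem had a mean of 1.71 on the large-gap arrays and 2.34 on the others, and Prm3 2.71 and 3.27, while Gmcl1 had 2.08 and 1.7, and Cabyr 0.504 and 0.135. Markers of other cells differed as well. Higher and lower markers numbered 4 and 4 for pachytene spermatocytes, 0 and 5 for spermatogonia and 3 and 6 for Sertoli cells. They numbered 3 and 4 for Leydig cells, 2 and 4 for macrophages, 0 and 7 for liver and 1 and 2 for epididymis. The part of RNA quality or cell content in the members' pattern was not tested.

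**Figure D3:**
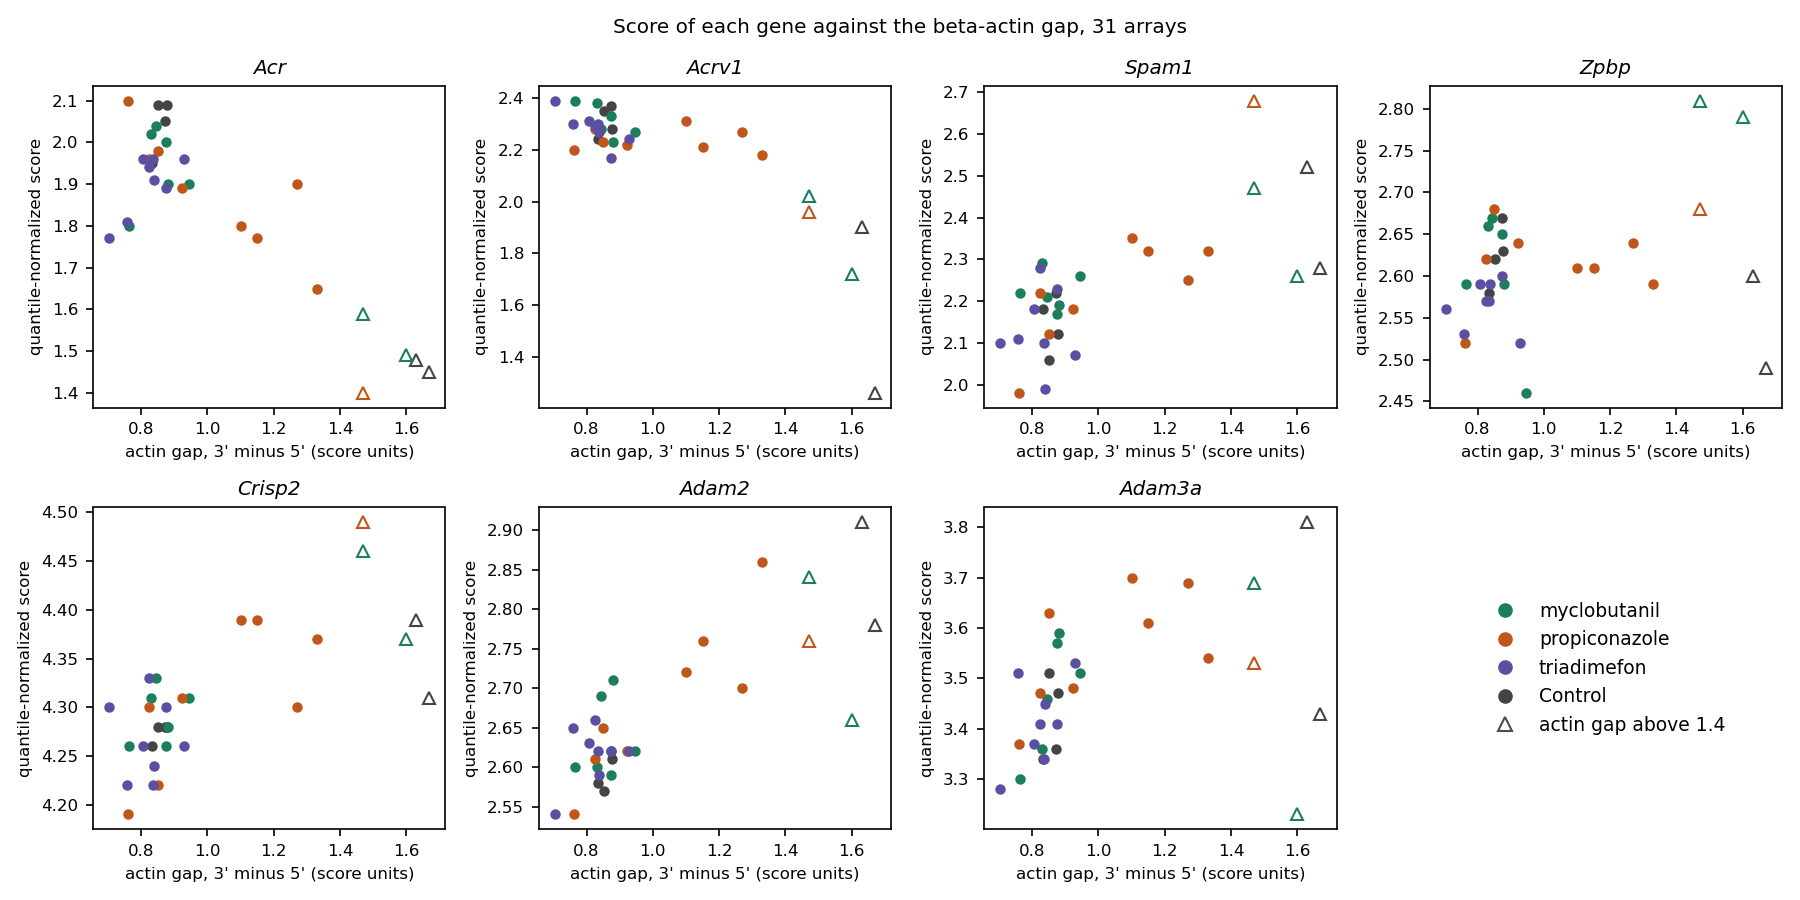
Quantile-normalized score of each gene (y axes, own scale per gene) against the beta-actin gap of the same array (x axes, score units), 1 point per array, coloured by compound, with open triangles for gaps above 1.4. Acr (r = -0.85) and Acrv1 (r = -0.82) fall with the gap, and Adam2 (r = 0.81), Crisp2 and Spam1 (r = 0.71 each) climb with it.

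Spread within groups differed between the genes in the same way. The within-group SD was 0.237 for Acrv1 and 0.209 for Acr, larger than those of 98.2% and 97.2% of all probe sets. It was 0.147 for Spam1 (92.4%), 0.125 for Adam3a (88.6%), 0.0942 for Adam2 (79.3%), 0.0747 for Zpbp (68.6%) and 0.0697 for Crisp2 (64.9%). Without the arrays of large gap it was 0.0611 for Acrv1, 0.093 for Acr, 0.0909 for Spam1, 0.0973 for Adam3a, 0.0619 for Adam2, 0.0532 for Zpbp and 0.0522 for Crisp2. The percentages compare the members with probe sets of mostly lower score. Each member's mean score was above that of at least 95.7% of all probe sets (the share for Acr). The SD was not compared among probe sets of like score.

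Of the 21 pairs of members, Spam1 and Crisp2 were the most alike, with r = 0.89 over 31 arrays (rho 0.87, adjusted permutation p = 7e-05), 0.86 without the 2 arrays farthest from the median (as for each pair below) and 0.81 in the 26 arrays of smaller gap. Adam2 went with Spam1 (r = 0.75, rho 0.73, adjusted permutation p = 0.0001; 0.73 without 2 arrays and 0.63 in the 26 arrays) and with Adam3a (r = 0.64, rho 0.60, adjusted permutation p = 0.00031; 0.57 without 2 arrays and 0.59 in the 26 arrays). Acr and Acrv1 had r = 0.75 (rho 0.52, adjusted permutation p = 7e-05) and 0.72 without 2 arrays, but 0.15 in the 26 arrays, so this relation rested on the arrays of large gap. Acr ran against Spam1 (r = -0.72, rho -0.62, adjusted permutation p = 7e-05), with -0.66 without 2 arrays and -0.44 in the 26. It ran likewise against Adam2 (r = -0.72, rho -0.62, adjusted permutation p = 0.0001; -0.70 and -0.58) and Crisp2 (r = -0.69, rho -0.61, adjusted permutation p = 0.00015; -0.66 and -0.45).

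Genes outside the set that tracked single members are given as a description, by the highest Pearson r over 31 arrays. They were Sf1 for Acr (0.96, and 0.92 in the 26 arrays), Dnajc18 for Acrv1 (0.97 and 0.68), Ccng2 for Spam1 (0.92 and 0.78), Slc9b2 for Zpbp (0.72 and 0.38), Herc4 for Crisp2 (0.92 and 0.88), Baz1a for Adam2 (0.97 and 0.97) and Adam18 for Adam3a (0.87 and 0.90). The 5 genes closest to the mean of the standardised members were Eif5b (0.92), Rad17 (0.87), Rnf138 (0.86), Ddhd1 (0.86) and Topbp1 (0.85). Adam18, another testis ADAM gene, scored 1.18, 1.24, 1.22 and 0.933 in P500 and 0.775, 0.831, 0.755 and 1.22 in T500. These groups overlapped, with 3 P500 arrays high and 3 T500 arrays low. The points of these correlations share the normalization and differ in RNA quality.

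**Figure D4:**
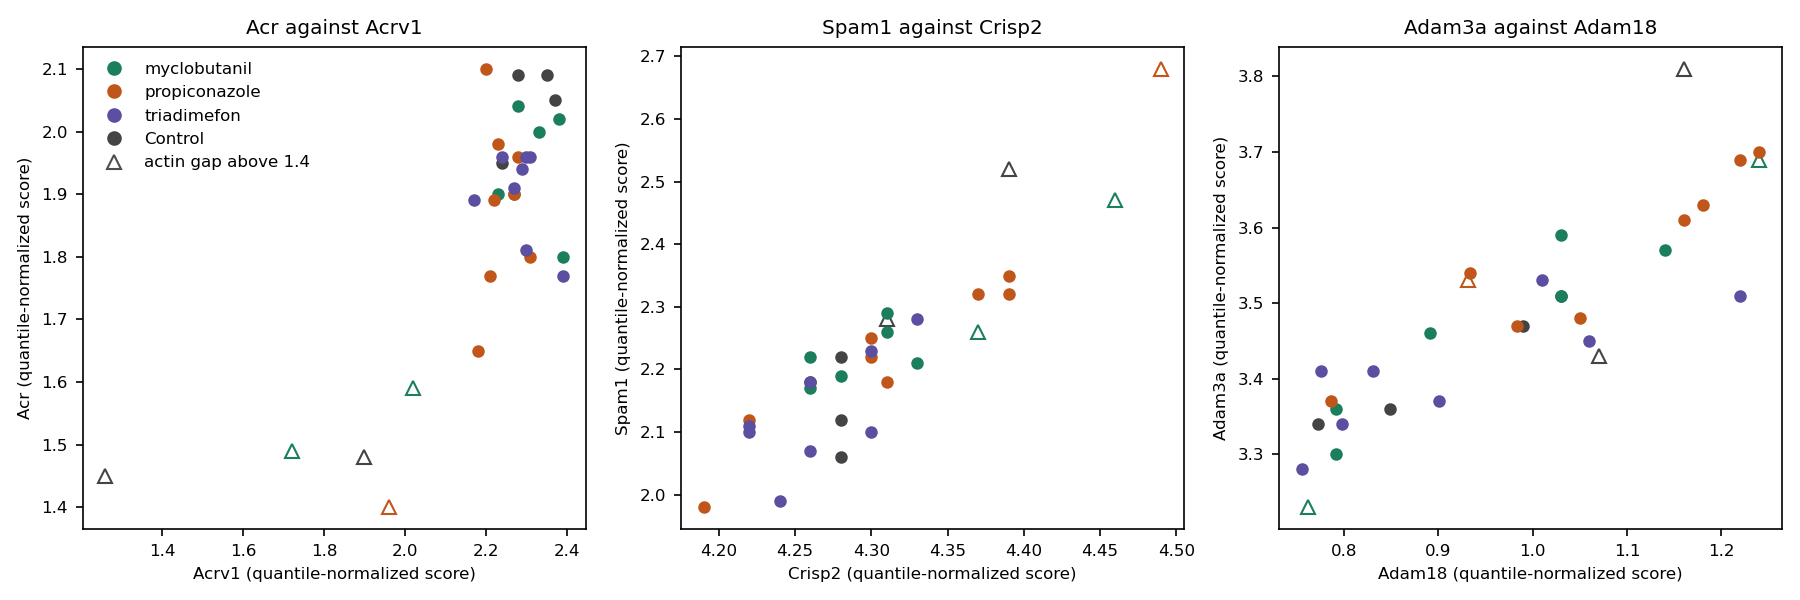
Quantile-normalized scores of 3 gene pairs, 1 point per array, coloured by compound, with open triangles for arrays of actin gap above 1.4: Acr (y) against Acrv1 (x), Spam1 against Crisp2, and Adam3a against Adam18. The Acr and Acrv1 relation lies mainly between the triangles and the rest (r = 0.15 among the 26 filled points), while the other pairs also hold among the filled points (r = 0.81 and 0.90).

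Other genes of the pathway were taken as 2 lists. Acrosome content, membrane and formation had 37 genes, of which 18 were measured, and sperm-egg adhesion and fusion, with relatives and chaperones, had 36, of which 16 were measured, or 33 different genes in all. None passed the adjusted threshold in any of the 12 comparisons (0 calls). At an unadjusted p under 0.05, the acrosome list had 4 genes higher and 0 lower in P500, and 4 higher and 3 lower in T500, of 18 each (3.36% and 7.62% of all probe sets). It had 1 higher in M500 and in M2000, 2 lower in T1800 and 0 in P2500. The adhesion list of 16 had 1 higher and 1 lower in M500 (9% of all probe sets), 1 higher in M2000 (1.7%) and in P2500 (4.15%), 1 lower in T500, and 0 in P500 and T1800 (5.84%). The median difference of the acrosome list ran from -0.01 (P2500 and T500) to 0.05 (T1800), and that of the adhesion list from -0.01 to 0.03, beside 0 for all probe sets.

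The 3 genes of smallest p against Control were Ace, Cabs1 and Zpbp2. Ace, whose testis form is a sperm surface peptidase, scored 2.29, 2.16 and 2.03 in M500, against a lowest of 2.23, a median of 2.37 and a highest of 2.41 in Control (difference -0.19, SE 0.0507, adjusted p = 0.204). Cabs1, a calcium-binding spermatid protein, scored 3.69, 3.75, 3.65 and 3.75 in P500, all above Control's 3.51 (lowest), 3.6 (median) and 3.63 (highest), a difference of 0.12 (SE 0.0361, adjusted p = 1). It was also above every Control array in T500, at 3.66 to 3.69 (difference 0.09, adjusted p = 0.615), and overlapped Control in the other exposed groups. Of all probe sets, 0.677% did not overlap Control in P500 and 1.22% in T500. Zpbp2, the paralogue of Zpbp, scored 1.23, 1.2, 1.07 and 1.26 in P500, against 0.864, 1.08 and 1.1 as the lowest, median and highest Control values (difference 0.17, SE 0.0499, adjusted p = 1). In M500 it was 0.18 higher than Control (adjusted p = 0.271), at 1.15 to 1.24 without overlap, as in 2.01% of all probe sets. The difference was 0.14 in T500 (adjusted p = 0.572), 0.1 in M2000, 0.06 in P2500 and 0.05 in T1800. Ace and Zpbp2 had 2 probe sets each, and 1 score per array is given.

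Several counts changed when the arrays of large gap were left out. Without them 198 probe sets (0.638%) passed in P500 against Control, with 0 of the 7 members and 1 of the 33 listed genes. At an unadjusted p under 0.05, 3 members then passed, beside 20.6% of all probe sets: Acr (difference -0.21, 95% interval -0.34 to -0.09, adjusted p = 0.0756), Adam2 (0.14, interval 0.05 to 0.22, adjusted p = 0.0849) and Adam3a (0.22, interval 0.09 to 0.35, adjusted p = 0.0763). The Control arrays kept in this fit had actin gaps of 0.833 to 0.878, against 0.85, 1.1, 1.27 and 1.33 in P500. With the gap as a covariate instead, the P500 differences were -0.01 for Acr, 0.05 for Adam2 and 0.15 for Adam3a. The part of the gap in these differences was not tested. The listed gene, named after its values were seen, was Sun1, a nuclear envelope protein, at 1.58 ± 0.0187 in P500 and 1.46 ± 0.0471 in Control (SD, n = 4 each, adjusted p = 0.0472). In P500 against T500, Sun1 (difference 0.14, adjusted p = 0.0183) and the sperm serine protease gene Prss21 (difference -0.22, adjusted p = 0.0273) passed as well.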

How the data were processed

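Testis RNA was copied from an oligo-dT primer, labelled with biotin and hybridised to Affymetrix Rat Genome arrays, 1 per animal, per the labels' protocols. The authors deposited 1 score for each probe set, which behaves like a logarithm and is centred near 0 on every array. Probe summary and normalization: not given in the sources used here. Precision is limited by the number of arrays.

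The deposited table held 31099 probe sets. After quantile normalization of the arrays, 57 control probe sets were dropped. The remaining 31042 entered the test in R 4.3.3 with limma 3.58.1 (lmFit with a mean per group over all 31 arrays, eBayes, 12 contrasts, Benjamini-Hochberg, threshold 0.05). The fit was tested on simulated data. By the platform annotation, of unknown age, 20826 probe sets had 1 symbol, 436 several and 9780 none. Correlations with the actin gap and between members used 100000 permutations in Python 3.11.15 with scipy 1.17.1. Alternatives were the deposited scores, scale normalization, array weights, the groups compared alone, the actin gap as covariate, animal number series and replicate number as blocks, a filter on dim probe sets, and leaving out arrays. Members and lists were chosen with earlier results of these data known. All members were named. Of the lists, genes past the threshold in any contrast were named or, as none passed, the 3 of smallest p against Control. For likeness, the 5 genes nearest the members' mean and 1 per member were named. Replicate numbers, which name samples only, did not pair the groups with Control. The 3 T500 pairs correlated at 0.15 to 0.19, but none was best with its own number. The replicate block changed no member's call. The 3 samples without values (Control replicate 1, M500 replicate 3 and T1800 replicate 1) were not analysed here.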

Additional observations from a re-analysis of the deposited data

Results flagged for a closer look

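In P2500, replicate 5 had an Acrv1 score of 1.96, apart from the other 4 arrays at 2.2 to 2.28. The gap to its neighbour was 0.753 of the group's range, above Dixon's 95% critical value, and the actin gap of that array was 1.47. In Control, replicate 6 had an Adam3a score of 3.81, apart from the other 5 at 3.34 to 3.51. That gap was 0.633 of the range, also above the critical value, and the array's actin gap was 1.63. Chance alone marks about 1 in 20 groups, and groups of 4 or more arrays were tested for each of the 7 genes. These were 42 tests, and the 2 marked values are a share near that rate. Both arrays are among the 5 with an actin gap above 1.4, whose part in these values was not tested.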

How the results depend on the processing

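The count of members past the threshold was 0 in every comparison and alternative run except 1. All 12 comparisons were run under each alternative, except that leaving out the P2500 arrays of high Alb bears on 2 comparisons and the later animal numbers on 1. Without the arrays of actin gap above 1.4, P500 against T500 gave 1 (Adam3a). Leaving out each array in turn gave 0 to 0 members. With the replicate block, 0 members passed in each comparison (smallest adjusted p against Control 0.229). Replicate numbers shared with Control gave 20 pairs with correlations of -0.77 to 0.57, of which 9 were above 0.1 and 0 were best with their own number.

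Of 392 differences from Control under other settings, 60 moved beyond the replicate spread and 103 changed sign, none of them called (smallest adjusted p 0.0756). Of those moved, 26 each came from the scores as deposited and from scale normalization. The highest deposited score was 8.21 on Control replicate 2 and 8.39 on M500 replicate 4, against 3.88 to 5.78 on the other arrays. The part of these arrays in the moved differences was not tested. Of 427 differences with 1 array left out, 0 moved beyond that spread and 54 changed sign. Leaving out Control replicate 2 alone nonetheless brought the Acrv1 difference to 0.06 in T500, against 0.22 with it, and the Acr difference to 0.02 in T1800, against 0.1. Without the P2500 arrays of high Alb, 1 of 7 members changed sign, and T1800 against Control within later animal numbers kept all 7 signs.

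Counts over all probe sets depended on weights. With array weights, 61, 8, 17, 882, 44 and 264 passed against Control in M500, M2000, P500, P2500, T500 and T1800, against 0, 0, 0, 0, 0 and 2 with equal weights. Leaving out M500 replicate 1 gave 156 in M500, and leaving out P2500 replicate 5 gave 283 in P2500.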
